A study of Homo sapiens with 32 samples.

Results

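ERH knockdown in wild-type 293T clones lowered single hairpins within transcripts that carry several, such as mir-192, mir-15a, mir-15b, mir-449c and mir-212. The neighbouring hairpin often did not pass the test, while mir-425 and its neighbour mir-191 were both lower, by unequal amounts. The mir-191 row did not pass when clone 55, 57 or 67 was left out. The knockdown raised many rarer miRNAs, among them mir-3157 and 28 rows of the miR-548 family, and also the abundant mir-7. The comparison used 16 of the 32 libraries of the series, those of the 4 clones numbered 52, 55, 57 and 67 whose genotype is labelled WT for DGCR8. It covered the 1513 miRNA rows of the count table, of which 613 had enough counts to be tested.

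All clones derive from 293T (CRL-3216), a human kidney epithelial-like line that is easily transfected, and each replicate is 1 clone. Cells of every clone were transiently transfected with 4 separate short hairpin RNA (shRNA) vectors, 2 non-targeting (control shRNA_1, control shRNA_2) and 2 against ERH (shERH_1, shERH_2). Puromycin at 2 µg/ml was started 24 h after transfection, and cells that carried the vector's fluorescent marker were sorted on day 5. Of the total RNA, 400 ng received 4 reference small RNAs (spike-ins), and 100 ng of the mixture entered a QIAseq miRNA library. The controls therefore also carry an shRNA, which itself passes through the later steps of the miRNA pathway. The remaining 16 libraries, from 4 clones with the DGCR8 genotype delta103-126Q (deletion clones below), served only for the test of whether the response differed by genotype. For each clone the 2 control libraries were summed and the 2 ERH libraries were summed, which gave 4 pairs of sums. ERH mRNA was not among the rows analysed here, so the knockdown itself was not checked.

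A miRNA is made from a hairpin within a longer primary transcript. The Microprocessor, the nuclease DROSHA with its RNA-binding partner DGCR8, cuts the hairpin out, DICER removes its loop, and 1 arm is loaded into an Argonaute protein. Bases 2 to 8 of that arm, the seed, select the mRNA targets, and miRNAs with a shared seed form a family. Many hairpins lie next to each other in 1 transcript, so the same RNA offers the Microprocessor several substrates. ERH (enhancer of rudimentary homolog) is a small nuclear protein that binds the N-terminus of DGCR8 and is known for helping poor hairpins such as the one of mir-15a when a good hairpin lies beside them.

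Each row of the table counts both arms of a precursor name, and a hairpin with several genomic copies has 1 row for all of them. Sequences below are RefSeq entries on the build GRCh38.p14, written with U. The first set shows guide arms that share a seed, with the seed in capitals. For each seed shown, at least 1 row was lower and at least 1 did not pass the test. The guide arms of the mir-15 and mir-16 hairpins share their seed, as do mir-192 with mir-215, mir-212 with mir-132, mir-29c with mir-29b, and mir-181b with mir-181a.
hsa-miR-15a-5p: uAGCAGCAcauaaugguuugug
hsa-miR-15b-5p: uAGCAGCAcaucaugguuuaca
hsa-miR-16-5p: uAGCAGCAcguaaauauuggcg
hsa-miR-195-5p: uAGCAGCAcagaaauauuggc
hsa-miR-497-5p: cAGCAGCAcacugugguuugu
hsa-miR-192-5p: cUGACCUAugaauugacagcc
hsa-miR-215-5p: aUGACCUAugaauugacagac
hsa-miR-212-3p: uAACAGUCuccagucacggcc
hsa-miR-132-3p: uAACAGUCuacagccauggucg
hsa-miR-29c-3p: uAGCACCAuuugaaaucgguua
hsa-miR-29b-3p: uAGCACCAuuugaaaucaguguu
hsa-miR-181b-5p: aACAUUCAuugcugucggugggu
hsa-miR-181a-5p: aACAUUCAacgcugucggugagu

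The second set shows hairpins that are neighbours in the genome, with the guide arm in capitals. In each pair the first fell and the second did not pass the test. All 8 are encoded on the minus strand, at chr13:50049119-50049201 (MIR15A), chr13:50048973-50049061 (MIR16-1), chr11:64891137-64891246 (MIR192), chr11:64891355-64891439 (MIR194-2), chr17:2050271-2050380 (MIR212), chr17:2049908-2050008 (MIR132), chr1:207801852-207801939 (MIR29C) and chr1:207802443-207802523 (MIR29B2).
MIR15A hairpin: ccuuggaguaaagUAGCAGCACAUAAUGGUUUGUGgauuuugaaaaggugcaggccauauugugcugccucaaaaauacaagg
MIR16-1 hairpin: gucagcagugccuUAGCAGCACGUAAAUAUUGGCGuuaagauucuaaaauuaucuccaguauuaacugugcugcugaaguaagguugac
MIR192 hairpin: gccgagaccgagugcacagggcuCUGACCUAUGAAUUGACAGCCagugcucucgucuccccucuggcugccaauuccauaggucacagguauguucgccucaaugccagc
MIR194-2 hairpin: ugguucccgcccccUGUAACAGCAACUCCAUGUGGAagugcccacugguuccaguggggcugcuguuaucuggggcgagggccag
MIR212 hairpin: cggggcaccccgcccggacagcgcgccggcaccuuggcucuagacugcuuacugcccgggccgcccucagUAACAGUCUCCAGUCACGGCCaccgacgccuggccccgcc
MIR132 hairpin: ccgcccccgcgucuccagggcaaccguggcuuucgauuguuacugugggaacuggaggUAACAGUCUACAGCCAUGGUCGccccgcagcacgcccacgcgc
MIR29C hairpin: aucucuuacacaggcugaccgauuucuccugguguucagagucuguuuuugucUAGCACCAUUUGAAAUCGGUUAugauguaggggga
MIR29B2 hairpin: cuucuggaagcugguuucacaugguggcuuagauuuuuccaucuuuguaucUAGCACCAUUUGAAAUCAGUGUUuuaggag

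The wild-type libraries held 1318923 to 6222790 miRNA counts (median 2182116) and 9139 to 33090 spike-in counts, and 683 to 884 miRNA rows had a count. In a median sum, the 10 most abundant rows held 56.4% of the counts. Markers of pluripotent cells were near or at 0 (mir-302c, mir-367, mir-371a and mir-372 had 0 counts). Among heart and muscle markers mir-208a had 0 counts, but mir-1 reached 94.5 CPM (counts scaled to library size) in the controls. There mir-133a reached 37.2 CPM and mir-499a 12.97 CPM. Of the markers best known from neurons, mir-9 and mir-128 were abundant, with mir-9 at 4345 to 7656 CPM in the controls. The neuron marker mir-124 was low, at 4.68 to 15.06 CPM in the controls. The endothelium marker mir-126 was abundant. In the controls the hepatocyte marker mir-122 had 122.8 to 441.6 CPM and the blood marker mir-142 had 148.5 to 285.03 CPM. Of the marker lists, 1 of 3 tested muscle rows (mir-133a) and 1 of 7 blood rows (mir-451a) were lower, 0 marker rows were higher, and the summed muscle markers ranged from 27.6 to 166 CPM in the controls and from 19.6 to 118 after ERH knockdown. All libraries came from sorted cells of clones of the same cell line, so these marker rows are not a measure of how many cells of other types were present. The source of the counts in the marker rows of other tissues was not tested.

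Over the 613 tested rows, 64 were lower and 128 were higher after ERH knockdown with an adjusted p under 0.05, which is 10.4% and 20.9% of the rows (edgeR quasi-likelihood test with the clone as a block, Benjamini-Hochberg adjustment, 4 pairs of sums). In 4 of 4 clones 127 rows (20.7%) had a change below 0, 63 of them among the 64 lower rows, and 169 rows (27.6%) had one above 0. The median log2 fold change of all rows was 0.09 on the main scale, which assumes that most rows do not change (TMM scaling). Scaled to the spike-ins it was 0.71, with 11 rows lower and 170 higher, and scaled to total miRNA counts it was 0.43, with 27 lower and 184 higher. The first of the 4 spike-ins held 92.5% of the spike-in counts, so values that use their sum rest mostly on 1 RNA. Directions below are on the TMM scale, so "lower" means lower relative to the bulk of the miRNAs. The summed miRNA counts per spike-in count, a measure of miRNA content per amount of RNA, had a log2 ratio of 7.02 ± 0.30 (SD, n = 4) in the controls and 7.29 ± 0.45 (SD, n = 4) after ERH knockdown. It changed by -0.39, -0.09, 0.68 and 0.89 in clones 52, 55, 57 and 67 (exact sign-flip permutation test, two-sided, p = 0.5, smallest possible p 0.125). The change was below 0 in clones 52 and 55 and above 0 in clones 57 and 67, and no common change was detectable.

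Among lower rows of at least 10 CPM on average the lowest was mir-192, a miRNA known from kidney, gut and liver and from the p53 response. It stood at 2344, 4082, 3419 and 3251 CPM (TMM-scaled) in the controls of clones 52, 55, 57 and 67 and at 490.3, 927, 719 and 1039 CPM after ERH knockdown. All 4 control sums lay above all 4 ERH sums, and the fitted log2 fold change, -2.07 ± 0.18 (SE), had an edgeR adjusted p of 2.32e-07. Its neighbour mir-194 lies in the same exon-borne cluster of the long noncoding RNA MIR194-2HG and also has a copy on chromosome 1, and both copies share its row. The row had 589, 882, 596 and 648 CPM in the controls and 395, 552, 595 and 439 CPM after knockdown. The groups overlapped, and its log2 fold change of -0.46 ± 0.18 (SE) did not pass, with an edgeR adjusted p of 0.0614, though it passed with GC offsets (-0.46) and with shERH_1 alone (-0.64). The log2 ratio of mir-192 to mir-194, which needs no scaling, was different by -1.62 ± 0.49 (SD, n = 4). The mir-215 row, a close relative of mir-192 beside the other mir-194 copy, had a log2 fold change of -0.54 ± 0.22 (SE) and did not pass, but it was -1.09 and passed with GC offsets.

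The tumour-suppressor pair mir-15a and mir-16 lies in an intron of DLEU2, and mir-15b lies beside the second mir-16 copy in an intron of SMC4. The mir-15a row fell from 3744, 3504, 2382 and 1737 CPM in the controls to 803, 895, 1086 and 906 CPM. The controls of clone 52 were the highest and those of clone 67 the lowest, while the ERH sums lay between 803 and 1086 CPM, and the difference was larger in clones 52 and 55 (-2.22 and -1.97 on the log2 scale) than in clones 57 and 67 (-1.13 and -0.94). The fitted value was -1.57 ± 0.21 (SE), with an edgeR adjusted p of 2.05e-05. The mir-15b row went from 9338, 7454, 7224 and 9579 to 3872, 3113, 3064 and 3161 CPM, or -1.34 ± 0.16 (SE) on the log2 scale, with an edgeR adjusted p of 1.22e-05. In both rows the groups did not overlap. The mir-16 row, the most abundant in these cells, was at 184329.7 to 208662 CPM in the controls and 121896 to 186341 CPM after knockdown. Its log2 fold change of -0.36 ± 0.15 (SE) did not pass, with an edgeR adjusted p of 0.0808, although it was below 0 in 4 of 4 clones. With GC offsets it was -0.75 and passed, as it did in DESeq2 (-0.50) and with shERH_1 against its own control (-0.39), and with spike-in scaling it was 0.25. The log2 ratios to mir-16 differed by -1.20 ± 0.41 (SD, n = 4) for mir-15a and by -0.98 ± 0.37 (SD, n = 4) for mir-15b. With spike-in scaling mir-15a and mir-15b had log2 fold changes of -0.95 and -0.73, and neither passed. Of the 7 rows of the extended miR-15/16 family 3 were lower, against 10.4% of all rows, the other being mir-497 (-0.62 ± 0.19, SE), which did not pass without clone 55, without clone 67, without the clone block or with shERH_2 against both controls.

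A pair in an intron of DALRD3 was lower in both members, by unequal amounts. The mir-425 row fell from 4356, 3922, 6338 and 6569 to 1944, 1579, 1894 and 1909 CPM, a log2 fold change of -1.50 ± 0.17 (SE). Its more abundant partner mir-191 fell by 0.53 ± 0.16 (SE) on the log2 scale with an edgeR adjusted p of 0.0160. With spike-in scaling its log2 fold change was 0.09 and did not pass. Nor did mir-191 pass with scaling to total counts, without the filter, without the clone block or with shERH_2 against both controls. It also did not pass without clone 55, 57 or 67, while mir-425 passed in all of these fits. The log2 ratio of mir-425 to mir-191 was lower in 4 of 4 clones, with a mean difference of -0.97 ± 0.16 (SD, n = 4).

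Other neighbouring hairpins differed in the same way. Within the mir-449 hairpins of CDC20B, relatives of the p53 target mir-34, mir-449c went from 34.5, 52.7, 41.8 and 37.7 to 9.42, 17.1, 13.9 and 8.70 CPM, with no overlap. The mir-449a row, at 46.9 to 153 CPM in the controls and 56.7 to 87.3 CPM after knockdown, overlapped and did not pass. The log2 ratio of mir-449c to mir-449a differed by -1.53 ± 0.64 (SD, n = 4). The rarer partner of the neuronal-activity miRNA mir-132, mir-212, fell from 16.3, 10.1, 24.5 and 23.6 to 5.32, 3.26, 5.25 and 6.09 CPM (log2 fold change -1.87 ± 0.31, SE). The mir-132 row itself lay between 479.7 and 985 CPM in all 8 sums (log2 fold change -0.15 ± 0.18, SE). In the MIR217HG transcript the pancreas-enriched mir-217 fell by 1.83 ± 0.29 (SE) on the log2 scale, with no overlap, while mir-216a and mir-216b had log2 fold changes of -0.36 ± 0.23 and 0.89 ± 0.72 (SE) and did not pass.

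In the pair of mir-29c and mir-29b, which target collagen mRNAs and share a noncoding transcript on chromosome 1, mir-29c was lower. Its row fell from 11544, 9893, 5572 and 8159.8 to 3033, 3517, 2958 and 6724 CPM, most in clones 52 and 55 and least in clone 67, with overlapping groups. The log2 fold change was -1.15 ± 0.22 (SE), and -0.55 with spike-in scaling, where it did not pass. The mir-29b row, fed by 2 loci, had a log2 fold change of -0.00 ± 0.21 (SE), being lower in clones 52 and 55 and higher in clones 57 and 67. The log2 ratio of mir-29b to mir-29c was higher in every clone, by 1.05, 1.32, 1.43 and 0.79. The mir-29a row fell by 0.54 ± 0.17 (SE), and this became 0.07 with spike-in scaling.

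Among the miR-181 miRNAs, known from lymphocyte development, 3 of 4 rows were lower, where 10.4% of all rows were, and 2 without clone 55 or clone 57 and 1 without the clone block. The mir-181b row dropped from 775, 1002, 1264 and 1351 to 388, 462, 458 and 582 CPM with no overlap (log2 fold change -1.20 ± 0.17, SE). Its partner mir-181a had 2651 to 3445 CPM in the controls and 2329 to 2839 CPM after knockdown, and its log2 fold change of -0.30 ± 0.17 (SE) did not pass, though with shERH_1 alone it was -0.44 and did. Both rows sum copies from 2 loci at which a mir-181a and a mir-181b hairpin lie side by side. The pair mir-181c and mir-181d fell together, with log2 fold changes of -0.69 and -0.84.

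The CLCN5 gene carries 8 tested hairpins in its introns, and 2 of them, at the first and the last position, were lower. The mir-532 row went from 2618, 2469.9, 1082 and 2501 to 1032, 926, 463 and 1202 CPM (log2 fold change -1.26 ± 0.17, SE). The mir-502 row fell from 134, 137, 90.8 and 185 to 62.8, 43.9, 19.6 and 54.4 CPM (log2 fold change -1.67 ± 0.22, SE). The 6 rows between them, mir-188, mir-500a, mir-362, mir-501, mir-500b and mir-660, had log2 fold changes from -0.41 to -0.05, and none passed. With GC offsets mir-362 passed (-0.48). The hairpin of mir-188 lies close to that of mir-532, and the log2 ratio of mir-188 to mir-532 was higher by 1.21 ± 0.13 (SD, n = 4). The 3′ arms of mir-500a, mir-501 and mir-502 are near copies of each other, as the sequences with their seeds in capitals show, so the split of reads between these rows is uncertain.
hsa-miR-500a-3p: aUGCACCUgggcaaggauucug
hsa-miR-501-3p: aAUGCACCcgggcaaggauucu
hsa-miR-502-3p: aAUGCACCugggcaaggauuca

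FTX, a noncoding RNA of the X-inactivation centre, holds 2 separate hairpin groups in its introns. In one, mir-374b and mir-421 were both lower, with log2 fold changes of -1.34 ± 0.18 and -0.92 ± 0.19 (SE), in 4 of 4 clones each. In the other, mir-374a had a log2 fold change of -0.40 ± 0.19 (SE) and mir-545 one of 0.07 ± 0.35 (SE), and neither passed, but with GC offsets mir-374a was at -1.04 and passed. The ratio of mir-374a to mir-374b, close relatives from different groups of 1 transcript, was higher by 0.56, 0.81, 1.03 and 1.35 on the log2 scale. The mir-374c hairpin overlaps that of mir-374b, so its row, at -1.01 ± 0.56 (SE), is uncertain.

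The rows mir-365a and mir-365b carry the same mature 3′ arm and held nearly equal counts, so they are 1 measurement. They fell from 1053 to 1550.0 CPM in the controls to 367 to 655 CPM, with no overlap, and a log2 fold change of -1.35 ± 0.18 (SE) for mir-365a. Both neighbours, mir-193b on chromosome 16 and mir-193a on chromosome 17, had log2 fold changes of -0.35 and -0.22 and did not pass.
hsa-miR-365a-3p: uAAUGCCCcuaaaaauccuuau
hsa-miR-365b-3p: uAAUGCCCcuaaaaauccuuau

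DGCR8 mRNA itself contains 2 hairpins that the Microprocessor cleaves, a known feedback on its own partner. The mir-1306 row fell from 74.7, 58.9, 77.6 and 112 to 34.8, 28.4, 25.1 and 48.3 CPM (log2 fold change -1.25 ± 0.21, SE), with no overlap. The mir-3618 row, at 30.9 to 49.6 and 27.6 to 42.6 CPM, had a log2 fold change of -0.16 ± 0.22 (SE). In HUWE1 the let-7 relative mir-98 fell by 0.90 ± 0.22 (SE), while its neighbour let-7f, whose row also counts a locus on chromosome 9, had a log2 fold change of -0.15 ± 0.18 (SE), and passed with GC offsets (-0.44). The red-cell miRNA mir-451a, which is matured by Argonaute 2 without DICER, went from 18.0, 14.4, 6.91 and 9.42 to 4.71, 7.78, 3.27 and 4.79 CPM, at low counts and with overlap (log2 fold change -1.21 ± 0.34, SE). Its edgeR adjusted p was 0.0116, and it did not pass without clone 52, without the clone block or with spike-in scaling. Its neighbour mir-144 was at 2.59 to 11.6 CPM.

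**Figure D1:**
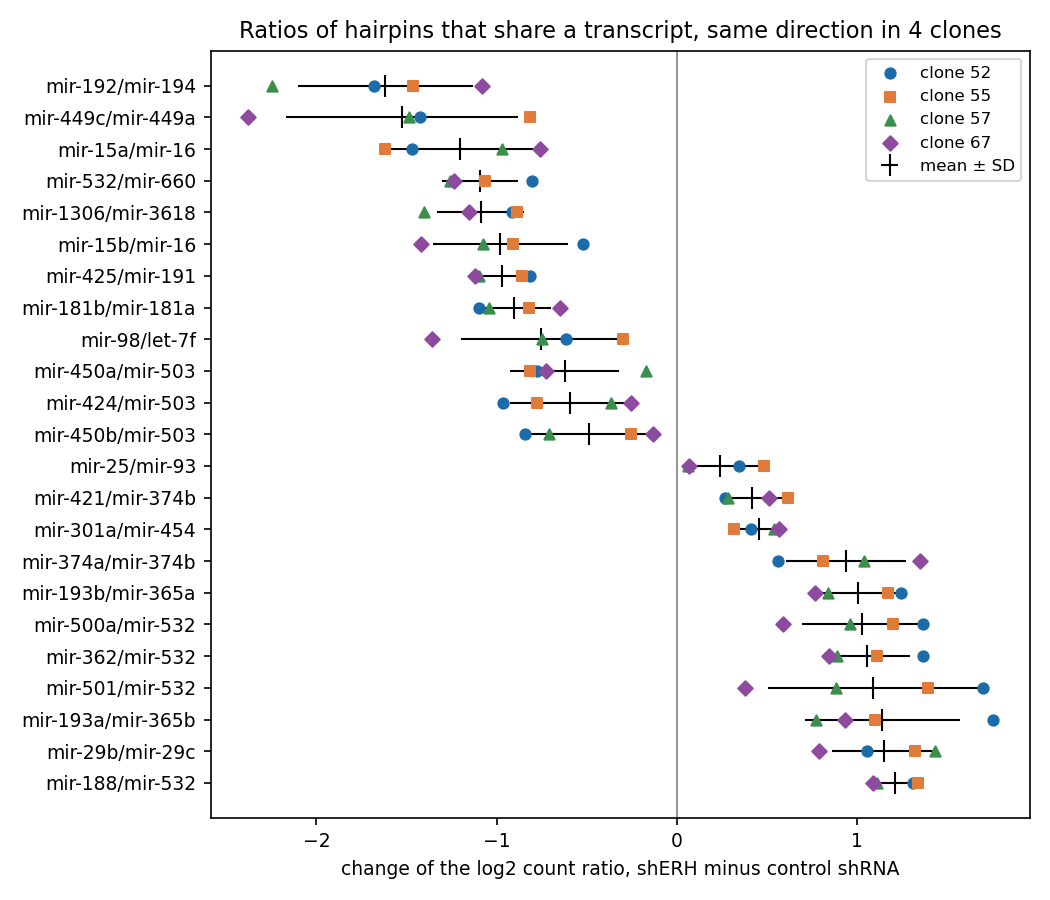
Change of the log2 count ratio of hairpins that share a transcript (x axis, shERH minus control shRNA, 1 coloured symbol per clone, black bar for the mean ± SD of 4 clones), for the 23 of 50 ratios that moved the same way in every clone. The changes for mir-192 over mir-194 lie between -2.25 and -1.08, and those for mir-188 over mir-532 between 1.09 and 1.33.

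Of 50 partner ratios with at least 100 counts in both rows on average, 23 differed the same way in 4 of 4 clones, 12 below 0 and 11 above 0. With 4 clones the exact sign-flip permutation test cannot go below p = 0.125, and the adjusted p of all 23 was 0.27. Ratios that share a denominator, such as the 5 to mir-532, are not separate measurements. In the MIR17HG transcript, the oncogenic miR-17-92 cluster, 2 of 6 rows were lower. The mir-19a row fell from 27171, 31209, 14896 and 12141 to 6119, 8841, 10508 and 10900.3 CPM, with log2 changes of -2.15 and -1.82 in clones 52 and 55 and of -0.50 and -0.16 in clones 57 and 67. The mir-92a row had the opposite order, with -0.05 and -0.26 in clones 52 and 55 and -0.88 and -1.07 in clones 57 and 67. The ratio of mir-19a to mir-92a therefore differed by -2.10, -1.56, 0.37 and 0.91, with no common direction. The mir-19a row did not pass in DESeq2 or with spike-in scaling.

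These cases were set beside all hairpins with a neighbour. Within 10 kb on the same strand, the tested rows formed 53 groups, and 46 had a median log2 fold change below 0. A lower row occurred in 31 groups and a higher row in 5, and 0 groups had both. Groups were counted by locus and are not all separate, since mir-3179 with mir-3180 made 3 of the 5 groups with a higher row and mir-181a with mir-181b made 2 of the 31. In 22 of the 31, exactly 1 row was lower, and in 6 every row was lower, namely mir-374b with mir-421, mir-425 with mir-191, mir-181c with mir-181d, mir-23b with mir-27b and mir-24, mir-99a with let-7c, and mir-221 with mir-222. Without clone 57, mir-191, mir-181d, mir-24, mir-99a, let-7c, mir-221 and mir-222 did not pass. The lowest row was not the most abundant one of its group in 20 of the 31. Over all 53 groups the lowest row was the most abundant one in only 22, so this is not particular to groups with a lower row. Of 116 rows with a neighbour 38 were lower (32.8%) and 3 higher, with a median log2 fold change of -0.36. Of 486 rows without one 25 were lower (5.14%) and 123 higher (25.3%), with a median of 0.30. Rows with a neighbour were also more abundant, with a median mean level of 266 CPM against 11.4 CPM for the others. The counts of lower and higher rows were not split by level, and the part of level in them was not tested. These counts moved with the processing: rows without a neighbour had 56 lower and 70 higher with GC offsets (median 0.07), 58 lower and 106 higher in DESeq2, and 14 lower and 69 higher without clone 57. Rows with a neighbour had 57, 58 and 25 lower rows in the same 3 fits. Under spike-in scaling the medians were 0.24 and 0.92, with 8 lower and 4 higher rows among those with a neighbour and 3 lower and 163 higher among the others.

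**Figure D2:**
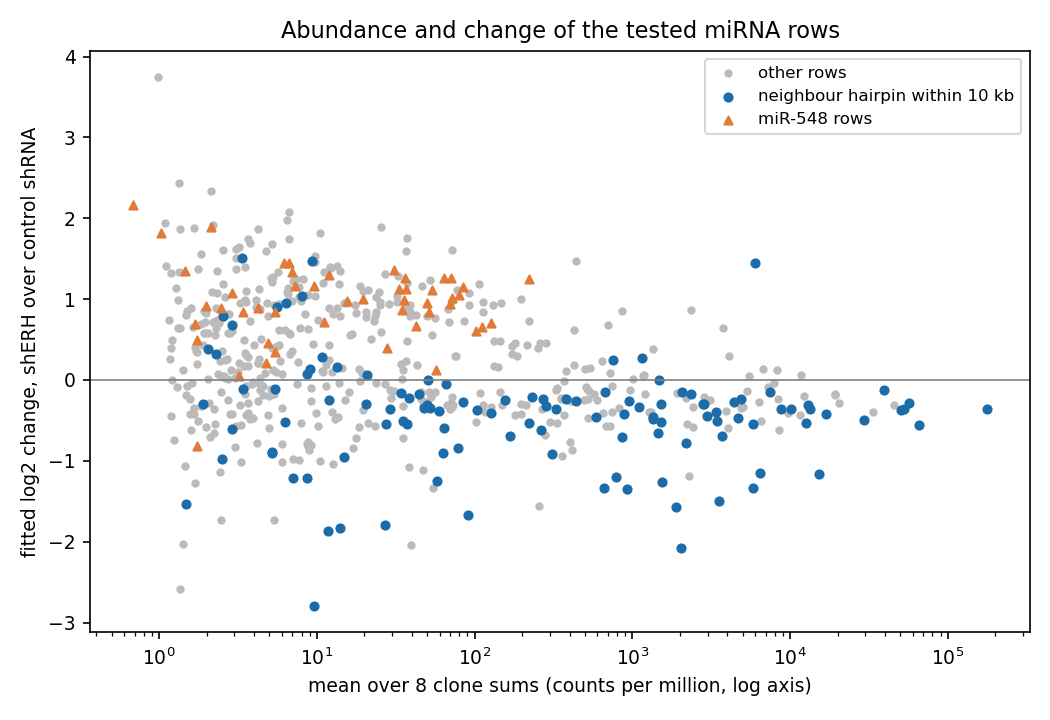
Fitted log2 change (y axis, shERH over control shRNA) of the 613 tested rows against their mean level over the 8 sums (x axis, CPM, log axis), with blue points for rows that have a neighbour within 10 kb, orange triangles for miR-548 rows and grey points for the rest. Blue points lie mostly below 0 at every level, and orange triangles lie mostly above 0, up to 221 CPM for mir-548h.

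Level went along with the direction. Lower rows had a median mean level of 669.5 CPM and higher rows of 24.1 CPM, against 17.5 CPM over all tested rows. Among the 84 rows of 1000 CPM or more, 26 were lower and 3 higher, the higher ones being mir-7, mir-629 and mir-590. Among the 169 rows from 10 to 100 CPM, 17 were lower and 73 higher. Of the 10 most abundant rows, mir-16, mir-92a, mir-20a, mir-93, mir-19b, mir-103a, mir-25, mir-10a, mir-221 and mir-218, only mir-92a (log2 fold change -0.56 ± 0.18, SE) and mir-221 (-0.50 ± 0.15, SE) were lower, and both had values above 0 with spike-in scaling, 0.05 and 0.11.

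The 12 lowest rows by the naming rule ran from mir-192 at -2.07 to mir-15b at -1.34 and also held mir-7974 and mir-589, which have no tested neighbour. The mir-7974 row fell from 39.7, 61.8, 107.1 and 47.6 to 12.7, 18.3, 19.96 and 9.72 CPM, and the mir-589 row, in an intron of FBXL18, from 352, 363, 367 and 445 to 133, 119, 128 and 136 CPM. In all 12 the groups did not overlap, a state reached by 22.8% of the tested rows. With spike-in scaling, 11 rows in all were lower, and 10 of them were on this list. The other was mir-4421, whose log2 fold change of -2.80 ± 0.46 (SE) was below that of mir-192 and whose mean of 9.58 CPM kept it off the list.

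**Figure D3:**
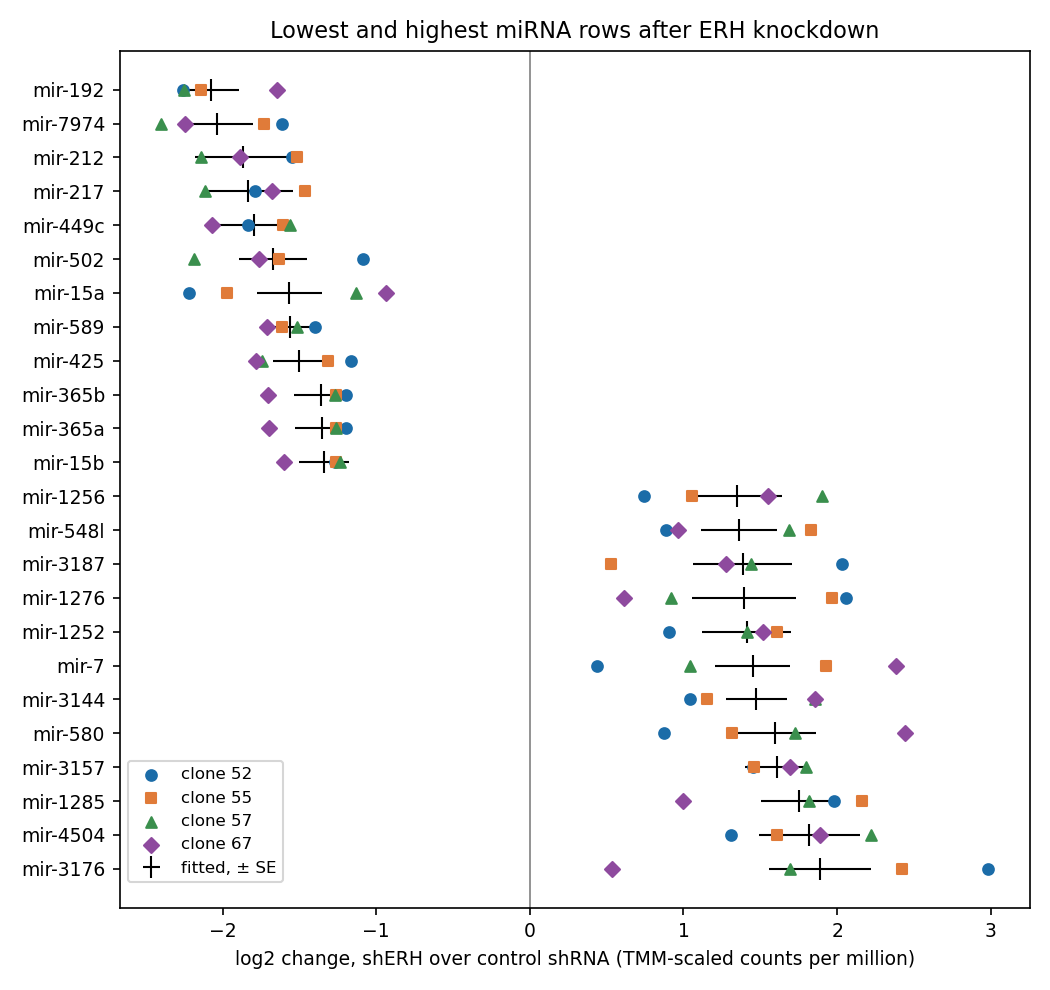
Log2 change in each of the 4 clones (coloured symbols, x axis, shERH over control shRNA, TMM-scaled CPM) for the 12 lowest and the 12 highest rows, with the fitted value and its SE as a black bar. The symbols of mir-15b run from -1.60 to -1.24, whereas those of mir-3176 run from 0.53 to 2.98.

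On the higher side mir-7 stood out by its level. This conserved miRNA represses growth-factor signalling and is bound by the circular RNA CDR1as, and 1 of its 3 copies lies in an intron of HNRNPK. It rose from 3861, 2566, 3164 and 2738 to 5234, 9742, 6528 and 14309 CPM, with no overlap but with changes between 0.44 in clone 52 and 2.39 in clone 67. The fitted value was 1.45 ± 0.24 (SE), with an edgeR adjusted p of 2.52e-04. The rise was 1.93 with shERH_1 and 0.78 with shERH_2 against their own controls, and the second did not pass. The mir-3157 row, in an intron of ENTPD1-AS1, rose more evenly, from 40.9, 29.5, 30.2 and 41.7 to 113, 81.6, 106 and 135 CPM. The mir-3176 row, in an intron of CAPN15, rose from 4.26, 7.91, 14.8 and 19.3 to 36.4, 44.2, 48.7 and 28.1 CPM. The mir-1285 row went from 16.1, 12.5, 16.02 and 24.3 to 64.5, 57.2, 57.3 and 48.7 CPM. In 9 of the 12 the groups did not overlap, the exceptions being mir-3144, mir-1276 and mir-3187.

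The arms below are shown with their seeds in capitals because they are from the rows that rose, and those of the miR-548 rows show how varied this family is.
hsa-miR-7-5p: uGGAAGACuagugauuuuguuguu
hsa-miR-3157-5p: uUCAGCCAggcuagugcagucu
hsa-miR-548o-3p: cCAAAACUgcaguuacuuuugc
hsa-miR-548ay-3p: cAAAACCGcgauuacucuugca
hsa-miR-548l: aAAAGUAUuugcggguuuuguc
hsa-miR-548n: cAAAAGUAauuguggauuuugu
hsa-miR-548aq-3p: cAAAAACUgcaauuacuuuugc

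The miR-548 family arose from Made1 transposable elements, short inverted repeats that fold into hairpins, and its many copies are scattered through the genome. Of 53 rows 48 were tested, 28 were higher and 0 lower, against 20.9% higher over all tested rows, and their median log2 fold change was 0.98 against 0.09. The count was 17 of 44 without clone 57, 16 of 41 without the clone block and 28 of 45 without clone 52. The most abundant row of the family, mir-548h, rose from 140.2, 140.2, 124 and 117 to 223, 333, 346 and 347 CPM (log2 fold change 1.24 ± 0.20, SE). The mir-548o row rose from 46.8, 64.7, 31.4 and 26.6 to 67.3, 128, 117 and 84.4 CPM, also with no overlap. Rows of the family share near-identical arms, so reads may be split between them and they are not separate measurements. The seed AAAGUAA was shared by 11 tested rows, of which 5 were higher, and AAAAACU by 6, of which 5 were higher. The hairpins are rich in A and U, and offsets for the GC content of the hairpin cut the family to 10 higher rows and a median of 0.54.

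The GC content of hairpins moved with the whole result. Higher rows had a median of 38.6% GC, lower rows 50.5%, and all tested rows 48.2%. With the GC offsets the balance turned to 74 higher and 114 lower rows. Rows with a neighbour had a median log2 fold change between -0.38 and -0.36 in each of 4 GC classes of nearly equal size. Rows without one had a median of 0.86 in the lowest class, where 66 of 136 were higher, and of 0.40, -0.10 and 0.11 in the others. The part of GC content in the rise of these rows was not tested beyond this. Predicted folding energy per base had a median of -0.41 kcal/mol for lower rows, -0.50 for higher rows and -0.47 for all tested rows, where values nearer 0 mean weaker folds. Within pairs it did not always follow: it was -0.37 for the MIR15A and -0.42 for the MIR16-1 hairpin, and -0.35 for MIR192 against -0.58 for MIR194-2, but -0.40 for MIR29C against -0.38 for MIR29B2. Hairpins in introns of protein-coding genes made up 63.5% of the higher, 34.9% of the lower and 52.0% of all located rows.

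**Figure D4:**
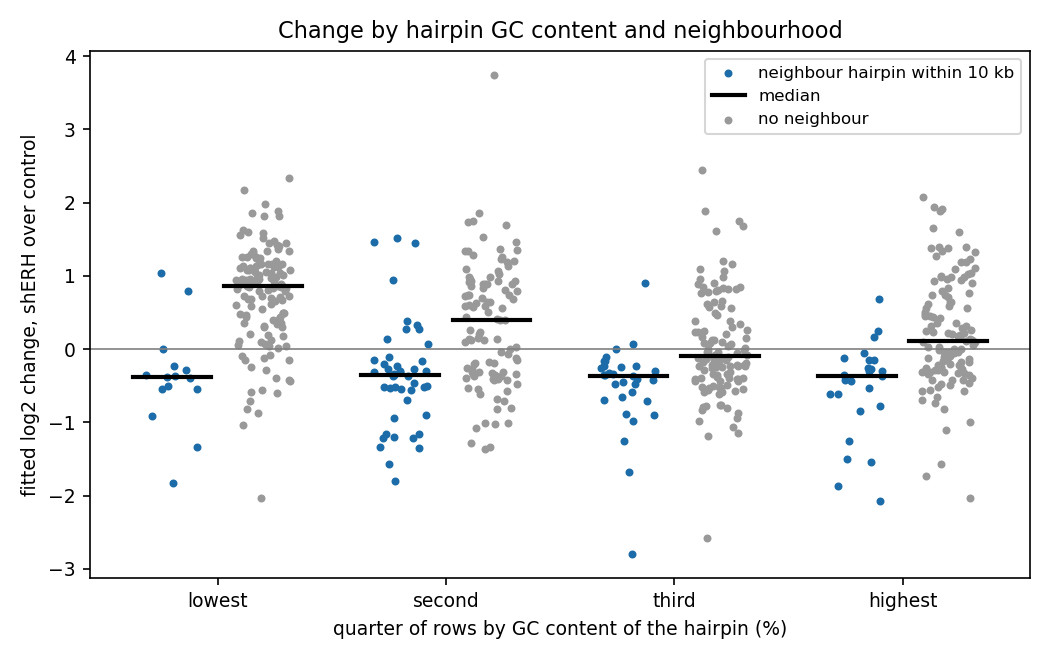
Fitted log2 change (y axis, shERH over control shRNA) of tested rows by class of hairpin GC content (x axis, 4 classes from low to high), with rows that have a neighbour within 10 kb in blue, rows without one in grey and medians as black bars. The blue medians lie between -0.38 and -0.36 in every class, and the grey ones are 0.86 in the lowest class and -0.10 in the third.

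Other families are to be read against the 10.4% of all tested rows that were lower. All 9 let-7 rows had log2 fold changes below 0 and 4 were lower, mir-98, let-7d, let-7g and let-7c, of which the last 3 were above 0 with spike-in scaling. The let-7 count was 1 without clone 55 or clone 57, 0 with scaling to total counts or without the clone block, and 7 in DESeq2. In the miR-30 family 1 of 5 rows was lower (0 without clone 55, 57 or 67, and 4 in DESeq2), among mir-130 and mir-301 relatives 2 of 5, among mir-34 and mir-449 relatives 2 of 6 (1 without clone 55), and in the growth-promoting miR-17 family 0 of 6, with log2 fold changes from -0.36 to -0.28. With spike-in scaling the medians of these 5 families were above 0, 0.22 for let-7 and 0.29 for miR-17. Among 16 hairpins listed as solitary, including mir-21, mir-22 and mir-31, 2 were lower (mir-210 and mir-31) and 0 higher, with a median of -0.19. That share is near the one over all rows, and the count was 0 without clone 55 or clone 67 and 6 with GC offsets. For hairpins that bypass the Microprocessor, because splicing or capped transcription forms their ends, 4 rows were tested and 0 passed, with a median of 0.00. Of these mir-320a had 791, 894, 1006 and 1377 CPM in the controls and 1044, 1156, 916 and 902 CPM after knockdown. Its relatives mir-320b, mir-320c and mir-320d were higher, with log2 fold changes of 0.73, 0.72 and 0.81. Without clone 55 only 1 of these 3 passed, and with shERH_2 against both controls 0 did.

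Both ERH shRNAs were also tested against a control library of their own, so that these comparisons share no library. With shERH_1, 110 of 507 rows were lower (21.7%) and 90 higher (17.8%), 39.4% in all, and with shERH_2, 18 of 510 were lower (3.53%) and 2 higher (0.392%), 3.92% in all. The count for shERH_2 rested on single clones: it was 92 without clone 52 and 92 without clone 67. Of 198 rows called with shERH_1 and tested in both, 193 had the same sign with shERH_2. All 20 rows called with shERH_2, 10.1% of the shERH_1 calls, were also called with shERH_1 in the same direction, 18 lower and 2 higher. The mir-192 row had log2 fold changes of -2.19 and -2.08, mir-15a of -1.64 and -1.75, mir-425 of -1.67 and -1.61, mir-449c of -1.98 and -1.88 and mir-181b of -1.22 and -1.35 with shERH_1 and shERH_2. Between the 2 control shRNAs, 0 of 466 rows passed in edgeR (0.00%), and 23 had an unadjusted p under 0.05.

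Whether the response was particular to clones with intact DGCR8 was tested as the difference of the knockdown effect between genotypes. In edgeR 0 of 667 rows passed (0.00%), and 127 had an unadjusted p under 0.05. Counting rows with at least 100 counts on average gave 29, and leaving out clone 52 gave 35. In the deletion clones 61 of the 64 lower rows and 119 of the 128 higher rows had the same sign, against 466 of all 613 rows. There 25 of the 64 and 13 of the 128 were called, and the median log2 fold change was -0.49 for the lower rows (-0.94 in wild-type clones) and 0.40 for the higher rows (1.11 in wild-type clones). These rows were picked by their wild-type calls, which favours large values in wild-type clones. Their medians and counts therefore cannot show whether the response was weaker in the deletion clones. The change of mir-192 there was -1.79, that of mir-15a -1.89 and that of mir-181b -1.42 on the log2 scale, while mir-7 had 0.14 against 1.45 in wild-type clones, a difference that did not pass.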

How the data were processed

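The authors deposited read counts per precursor name and spike-in, 1 column per library, per the file headers. SAMtools is named in the submitters' processing notes. The aligner, build and use of molecular identifiers are not given in the sources used here.

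Both shRNA libraries of a kind were added up within each clone. The sums were filtered (filterByExpr), TMM-scaled and tested with edgeR 4.0.16 (R 4.3.3, quasi-likelihood, clone as a block, Benjamini-Hochberg adjustment, threshold 0.05). The labels name the clone of every library, which pairs the sums; their deviations from the group means correlated with r between 0.34 and 0.64. Libraries of 1 group differed beyond sampling noise, so each was kept. The p-values and SEs of the fits to sums rest on how much the change within clones varied from clone to clone. edgeR estimates that variation partly from all tested rows together. An SE given here is therefore not the spread of 1 row over its 4 clones, and it can be smaller. The spread between the 2 shRNAs of a kind is not in them, since these were summed. On simulated counts for the wild-type comparison (613 rows), 67.7% of 2-fold and 95.7% of 4-fold changes were called, and 0.775% of unchanged rows.

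Named rows were the 12 lowest and 12 highest called rows with at least 10 CPM on average and 1 sign in 4 clones, the 10 most abundant rows, and listed transcripts and families. Members and lists were chosen with earlier results of these data known. Ratios used a pseudocount of 0.5. Loci came from GENCODE 29 (GRCh38; 1454 of 1513 rows matched, 118 with several loci), folding energies from RNAfold 2.7.2, sequences from RefSeq. DESeq2 1.42.0, other scalings and other filters were alternatives.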

Additional observations from a re-analysis of the deposited data

Results flagged for a closer look

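In 87 series of 4 clones, 5 (5.75%) had a clone that stood apart from the other 3, where chance gives about 1 in 20. Clone 67 had the lowest log2 change for mir-365a (-1.70), for mir-365b (-1.70), which is the same measurement, and for mir-15b (-1.60). Clone 57 had the smallest change in the log2 ratio of mir-450a to mir-503 (-0.17). Clone 52 had the highest change in the log2 ratio of mir-99a to let-7c (0.41).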

How the results depend on the processing

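The wild-type comparison called 192 rows. It called 124 rows when a mean of at least 100 counts was required, 94 without the replicate block (all 94 shared with the paired fit), 121 with shERH_2 against both controls, and 112 (without clone 57) to 197 (without clone 52) when 1 clone was left out, with 126 without clone 55. The count for shERH_1 went from 200 to 305 with spike-in scaling, 113 with the minimum of 100 counts, 92 without the replicate block and 126 (without clone 52) to 165 when a clone was left out. The count for shERH_2 went from 20 to 0 with spike-in scaling, 110 with scaling to total counts, 32 with the minimum of 100 counts, 8 without the replicate block and 10 (without clone 57) to 92 (without clone 52 or 67). The controls gave 0 to 2 rows when a clone was left out, with 2 without clone 67. The genotype difference gave 29 rows with the minimum of 100 counts, 52 with each library as a sample, and 0 to 35 when a clone was left out, with 35 without clone 52 and 3 without clone 67. Other tools gave 227 rows (DESeq2), 218 (DESeq2 size factors), 187 (no filter) and 188 (GC offsets) in the wild-type comparison.

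Among the named rows and the members of the listed transcripts and families, 18 lower rows had log2 fold changes above 0 with spike-in scaling. Lower rows outside these lists are not in this count. The 18 were mir-92a (0.051), mir-221 (0.11), mir-10b (0.00093), mir-34a (0.023), let-7d (0.026), mir-454 (0.030), let-7g (0.049), mir-210 (0.048), mir-31 (0.068), mir-29a (0.074), mir-191 (0.087), let-7c (0.094), mir-30c (0.10), mir-125b (0.11), mir-24 (0.14), mir-222 (0.14), mir-99b (0.17) and mir-26a (0.18). The cause was not tested. The ratios of partner hairpins do not depend on scaling. At this depth and with 4 clones, 67.7% of the simulated 2-fold changes that passed the filter were called, so a row that did not pass may still differ.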

Other observations

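For 3 tested rows, mir-4742, mir-5586 and mir-579, every wild-type clone differed in one direction and every deletion clone in the other. These were found by looking at all tested rows, and in none did the difference between genotypes pass in edgeR.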
